A study of Homo sapiens with 8 samples.

Results

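A set of 794 genomic regions was listed with a p53 peak after both p53-activating treatments and with none in either control. The regions come from chromatin immunoprecipitation and sequencing (ChIP-seq) of p53 in U2OS, an established line of human osteosarcoma cells with endogenous wild-type p53 per the labels. Cells of each condition were harvested at 24 h after 10 µM Nutlin-3, 0.6 µg/ml doxorubicin, 0.1% DMSO or no treatment, and all 4 conditions share the cell line, the medium and the p53 antibody DO-1. The labels make DMSO the control of Nutlin-3 and no treatment the control of doxorubicin, with 1 ChIP library and 1 input library per condition. The authors deposited, for each ChIP library, a list of peak positions in the genome build hg18 with no height, score or read count. The lists held 18159 Nutlin-3 peaks, 3087 doxorubicin peaks, 2793 DMSO peaks and 496 untreated peaks.

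The members were chosen by merging overlapping or adjoining peaks of the 4 lists into 19877 regions, then keeping those with at least 1 Nutlin-3 and 1 doxorubicin peak and no DMSO or untreated peak. They made up 3.99% of all merged regions (95% interval 3.73 to 4.28, exact Clopper-Pearson). The rule used the lists themselves, so the count is a description. With 1 library per condition there were no replicates, no difference was tested and no p-value is given. Intervals cover counting error only and treat regions as independent, and the depth of the libraries is unknown.

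p53 is a transcription factor that binds DNA as a tetramer at response elements built from a pair of short palindromic repeats. In unstressed cells the ubiquitin ligase MDM2, itself the product of a p53 target gene, marks p53 for degradation and keeps its level low. Nutlin-3 occupies the p53 pocket of MDM2 and lets p53 accumulate without breaking DNA, whereas doxorubicin traps topoisomerase II on DNA, and the breaks that follow switch on kinases that free p53 from MDM2. A region listed after both agents and in neither control is thus a place where p53 was called after activation by either route. Regions are named below by their hg18 positions as deposited. Their bases, response elements and genes were not analysed here.

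The shared regions held a small part of the Nutlin-3 list and a larger part of the doxorubicin list. The members held 798 Nutlin-3 peaks, which is 4.39% of the Nutlin-3 list (4.10 to 4.70), and 794 doxorubicin peaks, which is 25.7% of the doxorubicin list (24.2 to 27.3). Among regions without a control peak, the members were 4.99% of the 15910 with a Nutlin-3 peak (4.66 to 5.34) and 53.1% of the 1494 with a doxorubicin peak (50.6 to 55.7). Of the 2208 regions that held both treatments, with or without a control, they were 36.0% (34.0 to 38.0). In each of 790 members a single Nutlin-3 peak met a single doxorubicin peak, and in the other 4 a doxorubicin peak met 2 Nutlin-3 peaks. The members spanned 110 kb in all, with a median region width of 100 bp. Nutlin-3 peaks covered 76.8 kb of this, doxorubicin peaks covered 66.3 kb, and 32.7 kb was covered by both.

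The peaks of both treatments usually overlapped without coinciding. Among the 790 members with 1 peak of each list, 292 (37.0%, 33.6 to 40.4) had staggered peaks, each extending beyond the other on its own side. In 179 (22.7%, 19.8 to 25.7) the doxorubicin peak lay inside the Nutlin-3 peak, and in 174 (22.0%, 19.2 to 25.1) the Nutlin-3 peak lay inside the doxorubicin peak. Neither treatment was thus the usual container of the other. Identical bounds occurred in 60 members (7.59%, 5.85 to 9.67), of which 44 were 40 bp wide, the narrowest width in any list. In 85 members (10.8%, 8.69 to 13.1) the peaks only adjoined, with the end of 1 peak at the start of the other and no base in common. The background over all regions with 1 Nutlin-3 and 1 doxorubicin peak was 11.5% for adjoining peaks and 10.6% for identical bounds.

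**Figure D1:**
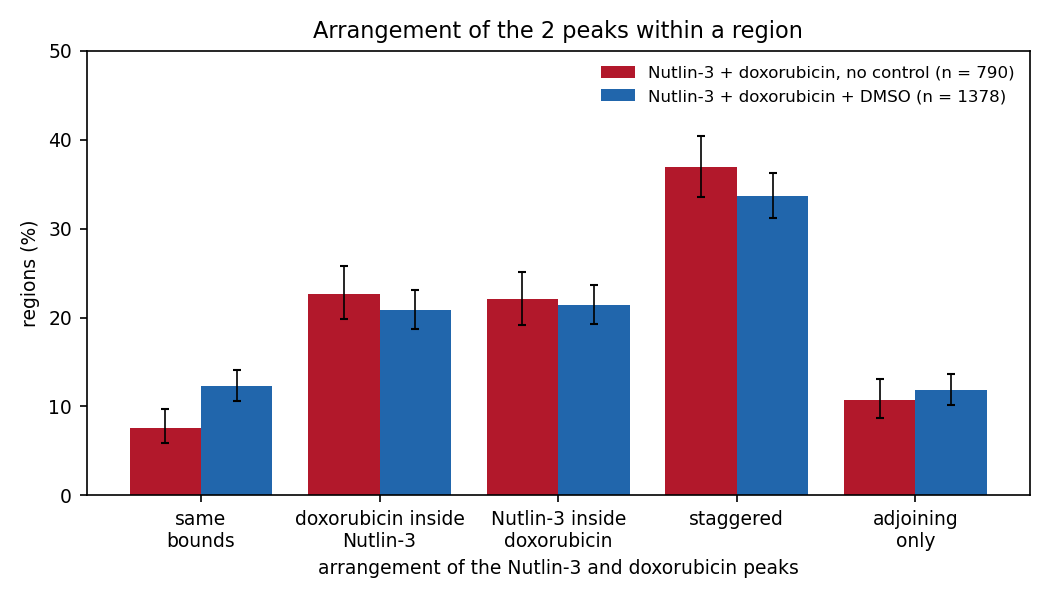
Share of regions (y axis, percent) in which the Nutlin-3 and doxorubicin peaks had each arrangement (x axis), for the 790 members with 1 peak of each list and for the 1378 such regions that also held a DMSO peak. Bars are shares and whiskers exact 95% binomial intervals. Staggered peaks were the most frequent arrangement in both classes.

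Midpoints lay close together in most members, which the rule largely sets. Both peaks of a member must overlap or adjoin, and their median width was 60 bp in each list. The median distance between the Nutlin-3 and the doxorubicin midpoint was 30 bp, close to the 20 bp grid on which the peaks were placed. The distance was at most 20 bp in 344 members (43.5%, 40.1 to 47.1), at most 50 bp in 604 (76.5%, 73.3 to 79.4) and over 100 bp in 43 (5.44%, 3.97 to 7.26). The Nutlin-3 midpoint lay at the higher coordinate in 359 members and at the lower in 339, with 92 equal, so the offset had no common direction. In regions that also held a DMSO peak the median distance was 20 bp, and 55.8% of them (53.1 to 58.4) had midpoints within 20 bp, an interval above that of the members. Narrow peaks bound the distance more tightly, and both peaks were 40 bp wide in 33.4% of those regions against 16.5% of members. Whether the widths account for the contrast was not tested.

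Peak widths in the shared regions ran from 40 bp to 720 bp in the Nutlin-3 list and from 40 bp to 1280 bp in the doxorubicin list. The median was 60 bp in both. The mean was 96.3 bp for Nutlin-3 (SD 87.1 over 798 peaks) and 83.5 bp for doxorubicin (SD 76.0 over 794 peaks). Peaks of 40 bp made up 42.7% of the members' Nutlin-3 peaks (39.3 to 46.2), against a background of 34.6% of the whole Nutlin-3 list. They made up 35.1% of the members' doxorubicin peaks (31.8 to 38.6), against 43.5% of the whole doxorubicin list. Narrow peaks were thus more frequent than in the whole list on the Nutlin-3 side and less frequent on the doxorubicin side. The Nutlin-3 share was 44.3% in regions with Nutlin-3 and DMSO, 61.8% in those with doxorubicin as well and 31.1% for Nutlin-3 alone. The doxorubicin share was 51.7% in regions with Nutlin-3, doxorubicin and DMSO. For doxorubicin alone it was 40.1% (36.5 to 43.9), an interval that overlaps that of the members. Peaks of at least 300 bp made up 4.89% of the members' Nutlin-3 peaks (3.50 to 6.62) against 2.60% of the whole list, and 1.76% of their doxorubicin peaks (0.967 to 2.94) against 6.58% of the whole list. For Nutlin-3 peaks the share was 4.59% in regions with Nutlin-3 and DMSO, 3.60% in those with doxorubicin as well and 2.23% for Nutlin-3 alone. For doxorubicin peaks it was 1.07% in regions with Nutlin-3, doxorubicin and DMSO, and 13.6% for doxorubicin alone. A wide peak has more room to meet another, and no test of these shares was made.

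Within a region, the widths in the Nutlin-3 and doxorubicin lists were only weakly related. The covered width was larger with Nutlin-3 in 317 members (39.9%, 36.5 to 43.4), larger with doxorubicin in 283 (35.6%, 32.3 to 39.1) and equal in 194. The median difference, Nutlin-3 minus doxorubicin, was 0 bp, with the central 90% of members between -127 and 200 bp. Across the 794 members Spearman's rho between the widths was 0.04 and Pearson's r was 0.06, given as a description, since all points share the same 2 libraries and the same peak caller. The doxorubicin median was 60 bp for members with Nutlin-3 peaks of 40 bp (339 members) and also for those with Nutlin-3 peaks of at least 300 bp (39 members). The Nutlin-3 median was 100 bp for the 14 members with doxorubicin peaks of at least 300 bp, against 60 bp in each narrower doxorubicin class. In 131 members both peaks were 40 bp wide, and in 1 both were at least 300 bp wide. Widths differed by at most 20 bp in 380 members (47.9%, 44.3 to 51.4) and by at least 200 bp in 64 (8.06%, 6.26 to 10.2).

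**Figure D2:**
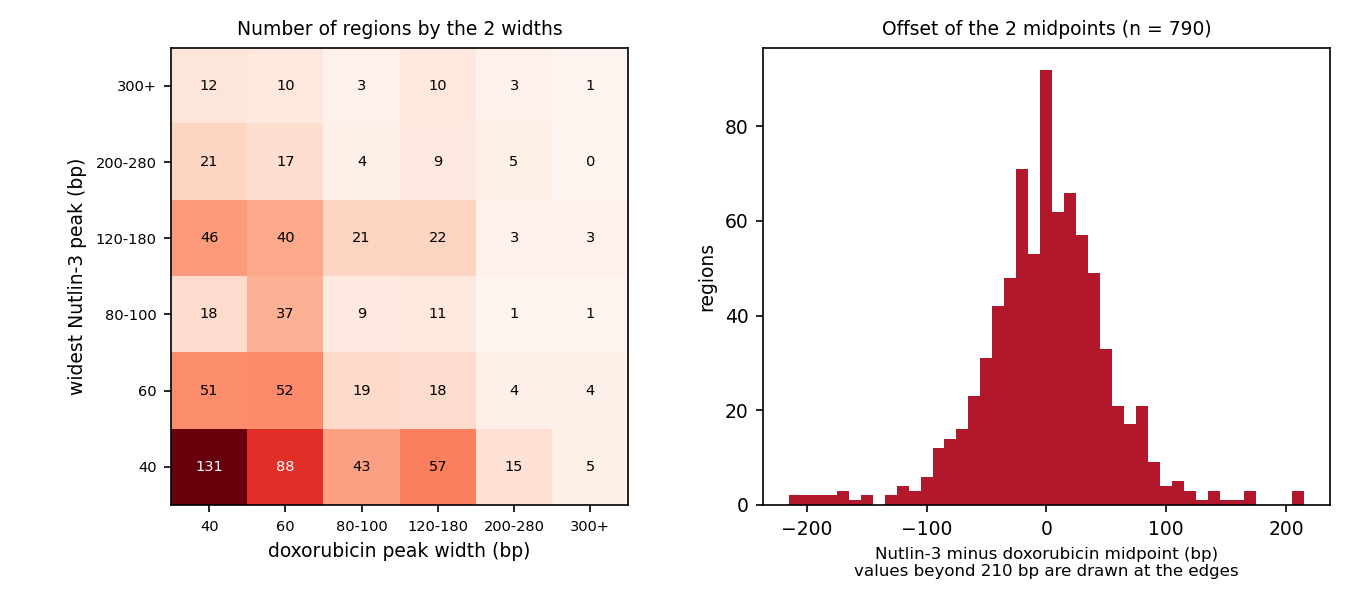
Left, number of members in each class of widest Nutlin-3 peak (y axis, bp) and doxorubicin peak (x axis, bp), with 131 members at 40 bp in both lists and 1 at 300 bp or more in both. Right, number of members (y axis) by the Nutlin-3 minus the doxorubicin midpoint (x axis, bp) for the 790 members with 1 peak of each, centred on 0.

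How often a treated site without a control peak was shared varied with its width, in a different pattern for each treatment. Of the Nutlin-3 regions whose widest peak was 40 bp, 6.72% (6.05 to 7.45) were members. The share was 3.32% (2.81 to 3.89) at 60 bp, 3.38% (2.68 to 4.20) at 80 to 100 bp, 4.53% (3.81 to 5.34) at 120 to 180 bp, 7.24% (5.52 to 9.30) at 200 to 280 bp and 10.4% (7.48 to 13.9) at 300 bp or more. The Nutlin-3 share was therefore low at intermediate widths and higher at both ends. For doxorubicin regions it was 49.8% (45.6 to 54.0) at 40 bp, 65.4% (60.3 to 70.2) at 60 bp, 71.2% (62.9 to 78.6) at 80 to 100 bp, 52.9% (46.4 to 59.4) at 120 to 180 bp, 42.5% (31.0 to 54.6) at 200 to 280 bp and 12.8% (7.20 to 20.6) at 300 bp or more. The doxorubicin share was thus highest at intermediate widths. Outside runs of untreated peaks (at least 5 with gaps of at most 20 kb) and chromosomes M and Y, the last value was 19.7% (10.9 to 31.3).

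**Figure D3:**
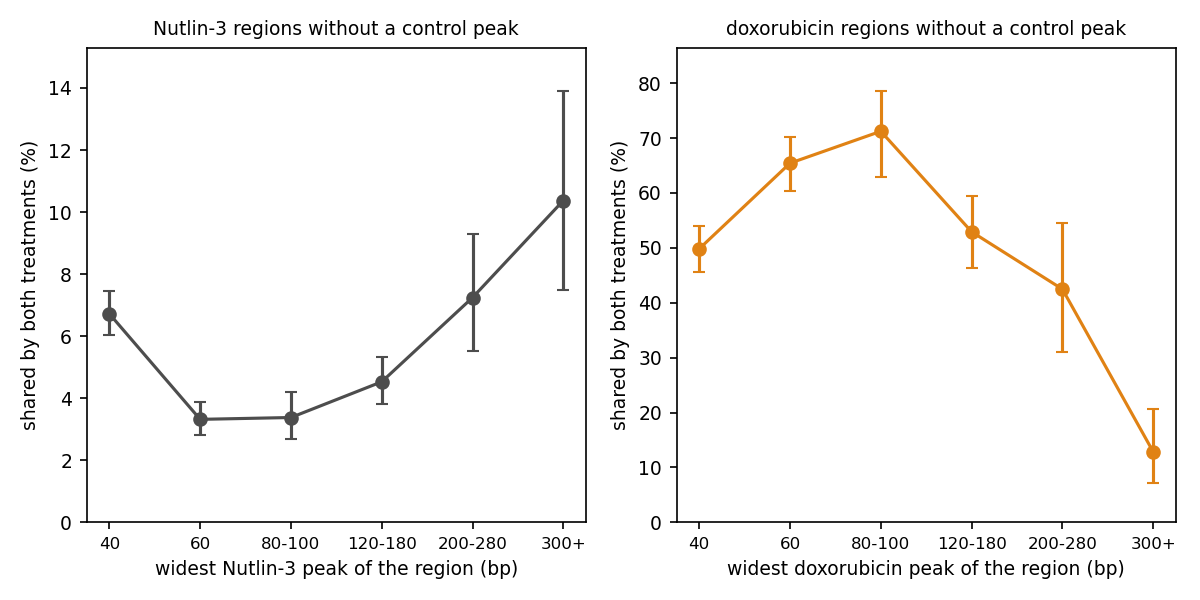
Percent of Nutlin-3 regions (left) and doxorubicin regions (right) without a control peak that were shared by both treatments (y axis), by the widest peak of the named list in the region (x axis, bp). Points are shares and whiskers exact 95% binomial intervals, with minima of 3.32% at 60 bp on the left and 12.8% at 300 bp or more on the right.

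The 10 widest members were mostly wide in a single list. On chromosome 22 from 28922211 to 28922931 the Nutlin-3 peak filled the whole 720 bp, and the enclosed doxorubicin peak, of 160 bp, ran from 28922751 to 28922911. On chromosome 2 from 110264251 to 110264871 the Nutlin-3 peak was 620 bp wide and the doxorubicin peak inside it was 40 bp wide. The same contrast was seen on chromosome 17 from 31466551 to 31467151, with 600 bp for Nutlin-3 and 40 bp for doxorubicin. On chromosome 11 from 97119511 to 97119971 the Nutlin-3 peak was 460 bp wide and the doxorubicin peak 40 bp wide. In each of these 4 regions the narrow doxorubicin peak lay away from the middle of the Nutlin-3 peak, with midpoints 170 to 260 bp apart. They were named for their width. Among other members with Nutlin-3 peaks of 340 bp, midpoint distances of 0 bp and of 140 bp both occurred.

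Other wide members went the opposite way. The widest, on chromosome Y from 11935831 to 11937211, joined a doxorubicin peak of 1280 bp to a Nutlin-3 peak of 120 bp by 20 shared bp at its end, and the nearest untreated peak lay 2340 bp away. This region lay in a run of doxorubicin peaks that also held 12 untreated peaks. On chromosome 2 from 240293631 to 240294431 a doxorubicin peak of 780 bp met Nutlin-3 peaks of 40 bp and 60 bp. On chromosome 4 from 38845031 to 38845511 the doxorubicin peak was 480 bp wide and the Nutlin-3 peak inside it, 20 bp off its midpoint, was 40 bp wide. Wide doxorubicin peaks also led the members on chromosome 2 from 206251911 to 206252331, with 380 bp against Nutlin-3 peaks of 60 bp at either end, and on chromosome 5 from 171468371 to 171468731, with 340 bp against a Nutlin-3 peak of 40 bp.

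The rest of the 10 widest were less one-sided. On chromosome 20 from 6519731 to 6520211 a Nutlin-3 peak of 440 bp and a doxorubicin peak of 160 bp shared 120 bp. On chromosome 1 from 16387091 to 16387531 a Nutlin-3 peak of 300 bp and a doxorubicin peak of 180 bp shared 40 bp, with a DMSO peak 3200 bp away. On chromosome 13 from 75043991 to 75044491 a Nutlin-3 peak of 400 bp only adjoined a doxorubicin peak of 100 bp, with 0 bp shared.

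Most shared regions lay far from any site listed with DMSO, as did most regions with Nutlin-3 alone or doxorubicin alone. The median distance to the nearest DMSO peak was 295 kb (266 to 343) over 789 members, since chromosome Y had no DMSO peak and held the other 5. That median was 235 kb (227 to 242) for Nutlin-3 alone and 500 kb (412 to 578) for doxorubicin alone, so the members lay between these classes. A DMSO peak lay within 1000 bp of 43 members (5.42%, 3.95 to 7.23), against a background of 7.64% of all regions with a Nutlin-3 peak and no DMSO peak. The share was 7.76% (7.34 to 8.20) for Nutlin-3 alone and 6.57% (4.85 to 8.67) for doxorubicin alone. Within 200 bp it was 3.53% (2.36 to 5.06) for members and 2.42% (2.18 to 2.68) for Nutlin-3 alone. Of the 43 members with a DMSO peak within 1000 bp, 28 had one within 200 bp. The place of the members relative to the background depended on how adjoining peaks were treated. When adjoining peaks were not joined, a DMSO peak lay within 1000 bp of 9.15% of the 743 regions that then met the rule (7.18 to 11.5), against a background of 8.56% (8.13 to 9.001).

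Untreated peaks were rarer still around the members, but the untreated list was the shortest, with 496 peaks against 2793 for DMSO. Shares with nearby untreated and nearby DMSO peaks are thus not comparable with each other. An untreated peak lay within 1000 bp of 6 members (0.756%, 0.278 to 1.64), against a background of 0.536% of all regions with a Nutlin-3 peak and no untreated peak, a share inside the members' interval. The median distance was 5513 kb over the 779 members on chromosomes with an untreated peak. It was 5225 kb for Nutlin-3 alone, 6532 kb for regions with Nutlin-3, doxorubicin and DMSO, and 342 kb for doxorubicin alone. For doxorubicin alone the share within 1000 bp was 7.57% (5.72 to 9.79).

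At the edge of the rule, 17 members had a DMSO peak only 20 bp away, a single grid step. The first 3 by position, each 60 bp wide, included a pair on chromosome 1, from 113048031 to 113048091 and from 217825931 to 217825991. The other, from 41803551 to 41803611, was on chromosome 2. The members nearest to an untreated peak lay on chromosome 19 from 23975511 to 23975571 (360 bp away), chromosome 18 from 3063551 to 3063791 (580 bp) and chromosome Y from 11939151 to 11939371 (700 bp). Just outside the rule, 35 of the 1414 regions of both treatments with a control peak held that control peak by contact alone. By position, the first of these was on chromosome 1 (205113851 to 205114091), and the next were on chromosome 2 (169017691 to 169017791, and 200851731 to 200851891). Each of the 3 was adjoined by a DMSO peak. On the side of sharing, 140 of the 700 regions with doxorubicin alone had a Nutlin-3 peak within 200 bp that did not touch them.

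Additional Nutlin-3 peaks flanked fewer shared regions than regions also listed with DMSO. A second Nutlin-3 peak outside the region lay within 1000 bp of 168 members (21.2%, 18.4 to 24.2), against a background of 23.9% of all regions with a Nutlin-3 peak. The share was 47.1% (44.5 to 49.8) for regions with Nutlin-3, doxorubicin and DMSO, and 21.2% (20.6 to 21.9) for Nutlin-3 alone. At 1000 bp the members thus lay with the Nutlin-3 sites of no other list and below the sites already listed with the solvent. At larger distances they lay below Nutlin-3 alone as well. The shares were 29.8% (26.7 to 33.2) against 34.7% (34.0 to 35.5) within 5000 bp, 45.1% (41.6 to 48.6) against 51.5% (50.7 to 52.3) within 20 kb, and 76.6% (73.5 to 79.5) against 81.1% (80.5 to 81.7) within 100 kb. Of the members, 64 (8.06%, 6.26 to 10.2) had their nearest other Nutlin-3 peak at over 200 and up to 300 bp, the fullest of the 100 bp steps examined up to 500 bp. That step was also the fullest for regions with Nutlin-3, doxorubicin and DMSO, with 17.8% (15.8 to 19.9), and for Nutlin-3 alone, with 5.80% (5.43 to 6.18). For regions with Nutlin-3 and DMSO it held 10.2% (8.15 to 12.5), the same as the step before it. Counting each pair of a member and a Nutlin-3 peak within 1000 bp of it gave 211 pairs, and in 167 of them the nearby peak belonged to Nutlin-3 alone. Of all 18159 Nutlin-3 peaks, 15116 belonged to that class, so its majority among the pairs is not particular to the members.

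Additional doxorubicin peaks flanked fewer shared regions than regions with doxorubicin alone. Another doxorubicin peak lay within 1000 bp of 42 members (5.29%, 3.84 to 7.08), against a background of 14.0% of all regions with a doxorubicin peak and 31.4% (28.0 to 35.0) of those with doxorubicin alone. For regions with Nutlin-3, doxorubicin and DMSO it was 4.57% (3.54 to 5.80), an interval that overlaps that of the members. Runs of at least 5 doxorubicin peaks with gaps of at most 20 kb held 39.4% of regions with doxorubicin alone. They held 2.27% of members and 0.714% of regions with Nutlin-3, doxorubicin and DMSO. Whether the runs account for the contrast was not tested. Since the Nutlin-3 list was the longest, shares with nearby Nutlin-3 and nearby doxorubicin peaks are not comparable with each other.

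**Figure D4:**
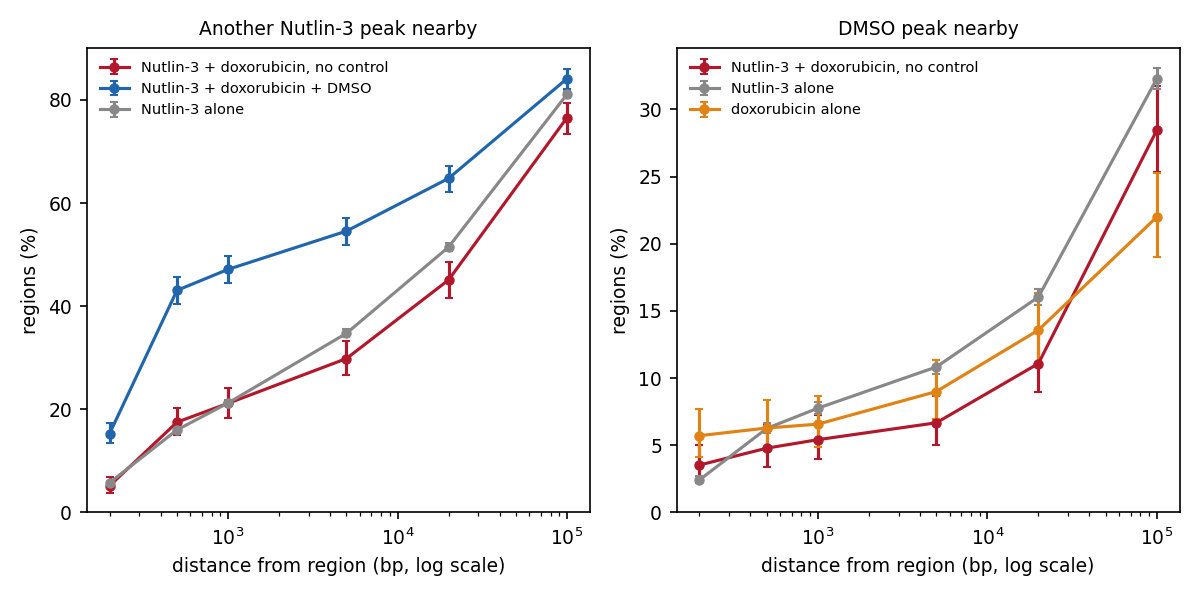
Percent of regions (y axis) with another Nutlin-3 peak (left) or a DMSO peak (right) within a given distance of the region (x axis, bp, log scale). Lines join shares by class and whiskers are exact 95% binomial intervals. At 1000 bp, 21.2% of members had another Nutlin-3 peak, against 47.1% of regions also listed with DMSO.

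Neighbouring shared regions mostly lay far apart, though this spacing was not computed for another class. Most had a peak of another region within 100 kb, but only 48.7% had it within 20 kb. The median gap between neighbouring members was 1884 kb (1626 to 2173) over 770 gaps, and the smallest was 0.24 kb. The median distance to a peak of another region was 22.4 kb (16.8 to 28.5), and such a peak lay within 1000 bp of 194 members (24.4%, 21.5 to 27.6) and within 100 kb of 633 (79.7%, 76.8 to 82.5). No such peak lay within 100 kb of 161 members (20.3%, 17.5 to 23.2). The share was 14.9% (13.0 to 16.8) for regions with Nutlin-3, doxorubicin and DMSO, 17.7% (17.1 to 18.3) for Nutlin-3 alone and 7.86% (5.97 to 10.1) for doxorubicin alone. The most isolated member was on chromosome X from 130569631 to 130569811, where a Nutlin-3 peak of 80 bp adjoined a doxorubicin peak of 100 bp. The nearest other peak lay 1270180 bp away. Next came chromosome 3 from 149428211 to 149428251, with identical bounds of 40 bp after both treatments and the nearest other peak 963960 bp away. The third was chromosome 4 from 65129911 to 65129991, at 777000 bp. The nearest region to a member was Nutlin-3 alone in 596 cases (75.1%, 71.9 to 78.0), close to the 76.0% that this class makes up of all regions. It was another member in 54 cases (6.80%, 5.15 to 8.78), against 3.99% of all regions.

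Runs of members were few. Joining members with gaps of at most 20 kb gave 30 runs with 68 members in all, of which 28 runs were pairs. Of the 30 runs, 26 held no DMSO or untreated peak, 2 held a DMSO peak and 2 an untreated peak. The tightest pair spanned 0.42 kb on chromosome 14, from 20579791 to 20580211. A pair on chromosome 1, from 10726971 to 10727411, spanned 0.44 kb, and a pair on chromosome 20, from 45530571 to 45531211, spanned 0.64 kb. Each of these held 2 Nutlin-3 and 2 doxorubicin peaks and no control peak. They were picked after their values were seen. The only run of 3 lay on chromosome Y from 11923231 to 11939371, with 5 Nutlin-3, 11 doxorubicin, 0 DMSO and 6 untreated peaks.

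The longest run stood apart from the others. On chromosome X from 30719631 to 30734531, a span of 14.9 kb, 9 members lay with gaps of 400 to 4920 bp between them. The span held 13 Nutlin-3 peaks and 23 doxorubicin peaks, against 0 DMSO and 0 untreated peaks. Doxorubicin peaks were more numerous here than Nutlin-3 peaks, although the Nutlin-3 list as a whole was longer. They covered 3.46 kb (23.2% of the span), with a widest peak of 480 bp, and the Nutlin-3 peaks covered 1.18 kb (7.92%), with a widest peak of 300 bp. Of the peaks in the span, 11 of 13 from Nutlin-3 and 9 of 23 from doxorubicin lay in members.

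Single sites within the chromosome X run varied in how the treatments matched. The member from 30721771 to 30721831 had identical bounds of 60 bp after both treatments. The member from 30722511 to 30722891 had peaks of 300 bp in both lists, offset by 80 bp. The members from 30719631 to 30720031 and from 30727451 to 30727751 each joined 2 Nutlin-3 peaks to a doxorubicin peak, of 340 bp and of 300 bp in that order. The nearest DMSO peak lay 3753 kb beyond the end of the run, and the nearest untreated peak 30868 kb beyond it.

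**Figure D5:**
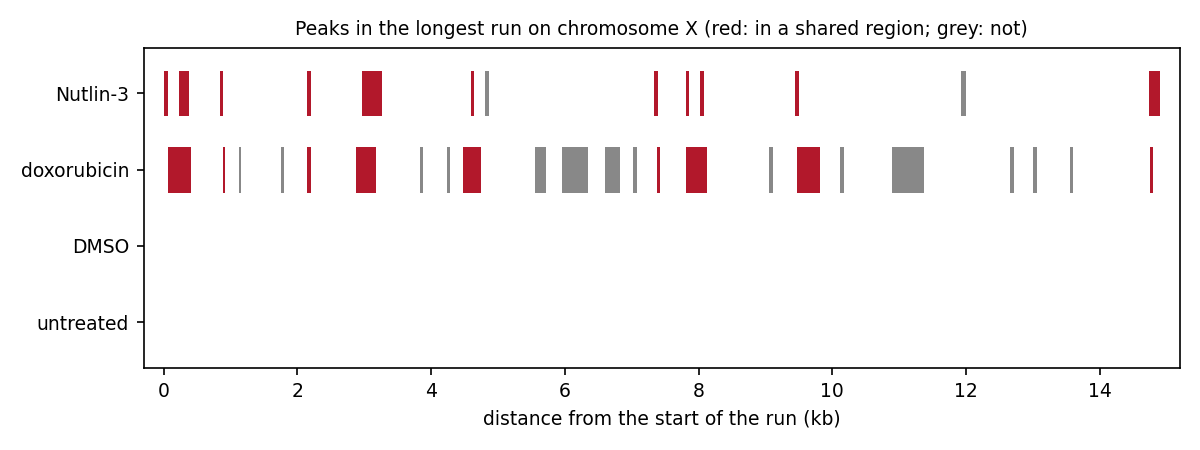
Peaks of each list (rows) along the 14.9 kb run of 9 members on chromosome X, by distance from its start (x axis, kb), drawn to scale. Red peaks lie in members and grey peaks do not, and the DMSO and untreated rows hold 0 peaks.

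Dense runs of doxorubicin peaks otherwise contributed few shared regions. The doxorubicin list had 34 runs of at least 5 peaks with gaps of at most 20 kb, of which 7 held a member. Inside these runs 18 of 294 doxorubicin regions without a control peak were members (6.12%, 3.67 to 9.50), and outside them 776 of 1200 were (64.7%, 61.9 to 67.4). The chromosome X run supplied 9 of the 18, and without it the share inside runs was 3.32% (1.53 to 6.21). The 3 runs with the most doxorubicin peaks held few or no members. The run on chromosome 16 from 44943311 to 44993031 had 43 doxorubicin peaks, 0 Nutlin-3 peaks and 0 members, with 30 untreated peaks. The run on chromosome 21 from 9787811 to 9833811 had 35 doxorubicin peaks, 0 Nutlin-3 peaks and 0 members, with 0 untreated peaks. The run on chromosome Y from 11907131 to 11950071 had 29 doxorubicin peaks, 5 Nutlin-3 peaks and 3 members, with 12 untreated peaks. For Nutlin-3 runs defined in the same way there was no such contrast, with 4.70% (3.70 to 5.86) of regions without a control peak being members inside them and 5.02% (4.67 to 5.39) outside.

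Members lay on 24 chromosomes, with 771 on autosomes, 18 on chromosome X and 5 on chromosome Y. Chromosome 1 had 89 and chromosome 2 had 72. As a share of Nutlin-3 regions without a control peak, the autosomes ranged from 3.79% (2.59 to 5.34) on chromosome 6 to 6.72% (4.98 to 8.84) on chromosome 10, and chromosome X had 8.49% (5.11 to 13.1). The intervals of these autosomes and of chromosome X overlap, and without the run of 9 members described above chromosome X had 4.48% (2.07 to 8.33). Chromosome Y stood outside this range, with 5 members among its 5 such Nutlin-3 regions (100%, 47.8 to 100). As a share of doxorubicin regions without a control peak, the values ran from 8.70% (3.26 to 18.0) on chromosome 21 to 71.8% (55.1 to 85.0) on chromosome 15 among autosomes. Chromosome 16 had 31.0% (20.5 to 43.1) and chromosome 4 had 37.1% (27.1 to 48.0). Outside the runs of doxorubicin peaks the values were 31.3% (11.0 to 58.7) on chromosome 21, 51.2% (35.5 to 66.7) on chromosome 16 and 64.6% (49.5 to 77.8) on chromosome 4. On chromosome Y all 5 members lay in runs of doxorubicin peaks, and 0 of the 16 doxorubicin regions outside them were members. The runs with these members also held untreated peaks, 12 in one and 5 in the other. Whether peaks were placed correctly on chromosome Y was not tested.

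The size of the set depended on the control lists and on how overlap and width were treated. A reciprocal overlap of at least 50% between the Nutlin-3 and doxorubicin peaks left 330 of the 794 regions. Counting only peaks of at least 60 bp gave 431. That limit also removed control peaks of under 60 bp, so the 431 are not a subset of the 794. Barring regions by DMSO alone gave 802, because only 8 regions of both treatments held an untreated peak without a DMSO peak. Barring them by no treatment alone, the labelled control of doxorubicin, gave 2194. Of the 8 regions, 4 lay in runs of untreated peaks, namely 132741511 to 132744011 of chromosome 2, 33870111 to 33871631 of chromosome 16, and 11927331 to 11928931 and 11929171 to 11930711 of chromosome Y. These 4 were 1520 to 2500 bp wide, and the other 4, on chromosomes 12, 19 and 20, were 80 to 380 bp wide.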

How the data were processed

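Per the labels' protocols, cells were crosslinked with formaldehyde and p53 was precipitated with antibody DO-1 from sheared chromatin. Per the submitters' processing notes, CASAVA, Bowtie 0.12.2 and the build hg18 were used. The sources used here do not give the peak caller or its threshold. The deposited values are peak starts and ends, the authors' positions in bp, called per library with no pooling. All 24535 widths were multiples of 20 bp, and no list overlapped itself. Whether ends belong to a peak is not stated, so adjoining peaks were merged.

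Merging, distances and runs were computed in Python 3.11.15 (numpy 2.4.6, scipy 1.17.1, matplotlib 3.10.9), and the merging was tested on simulated data. Distances are gaps in bp, and adjoining is 0. Intervals are exact 95% binomial or, for medians, from order statistics. Input libraries were not analysed here. Regions were named by rank: the 10 widest, the 5 widest peaks of each treatment, those with the most peaks, the nearest to and farthest from other peaks, and the longest run. Members, lists and alternatives were chosen with earlier results of these data known. Alternatives changed joining, overlap, minimum width, chromosomes and controls.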

Additional observations from a re-analysis of the deposited data

How the results depend on the processing

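No paired analysis was possible because each condition had 1 library, and no replicate could be left out. The cause of a change was not tested except where the alternative itself removes peaks or controls. Against 794 members, a reciprocal overlap of at least 50% left 330. Counting only peaks of at least 60 bp, controls included, gave 431, and barring by no treatment alone gave 2194. The share of the Nutlin-3 list, 4.39%, was 1.82%, 3.65% (of its peaks of at least 60 bp) and 12.2% under these settings. It was 5.53% when peaks up to 500 bp apart were joined. The share of the doxorubicin list, 25.7%, was 10.7% under the reciprocal overlap, 71.2% with no treatment alone barring, 28.2% with joining, 24.07% when adjoining peaks were not joined, 27.6% outside runs of untreated peaks and chromosomes M and Y, and 24.1% when a control peak within 1000 bp barred a region. The median width difference became 20 bp with peaks of at least 60 bp. The share of members with a DMSO peak within 1000 bp, 5.42%, was 0.470% with joining, 9.15% when adjoining peaks were not joined, 3.25% with peaks of at least 60 bp and 65.8% with no treatment alone barring. The first and last of these values follow largely from the settings. Joining barred regions with a DMSO peak within 500 bp. With no treatment alone barring, regions that themselves held a DMSO peak were counted. This share was not computed where a nearby control barred a region. Removing the chromosome X run, chosen after seeing the data, left 785 members and moved none of the 5 results. Without read counts, depth cannot be set against list length.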
